A study of Mus musculus with 1 sample.

Results

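Selenoproteins are enzymes and membrane proteins that carry selenocysteine, an amino acid with selenium in place of sulfur. The 10 genes described here are Gpx1, Gpx4, Txnrd1, Selenow, Selenoh, Selenot, Selenok, Selenos, Selenof and Sephs2, out of 12835 genes with at least 1 read of 7 or more passes. They were chosen by name, with earlier results of these data known. A read was counted for a gene when its circular consensus sequence rested on at least 7 passes of the polymerase around the molecule. In all, 1517 transcripts came from these genes, 547 of 246316 nuclear transcripts in replicate 1 and 970 of 455660 in replicate 2. At least 10 transcripts, the minimum for a gene value, were reached by 9 of the 10 genes, with 29 for Selenow as the fewest among them. Gpx4 had 6 and got no gene value.

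The cells were wild-type ICR mouse embryonic stem cells (ESCs) after 24 h of differentiation into epiblast-like cells (EpiLCs), grown in N2B27 medium with activin A, bFGF and KSR on Matrigel. Their poly(A) tails were read by PAIso-seq, which copies whole mRNAs with their tails for PacBio sequencing. There was 1 sample that holds 2 barcoded replicates, numbered by barcode. The labels do not say whether the replicates came from separate cultures, so the spread between them may be technical, and with 1 group no p-value was computed. All 8 formative and core pluripotency markers examined (Pou5f1, Sox2, Fgf5, Otx2, Dnmt3a, Dnmt3b, Lef1, Pou3f1) had transcripts, 1484 in all, and 5 of 6 naïve markers had 556, of which Zfp42 gave 501 while Prdm14 had none. Markers of primitive endoderm, mesoderm, trophoblast, neural cells and fibroblasts had between 0 and 5 transcripts per list.

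Selenocysteine is inserted at a UGA codon, which otherwise stops translation. A hairpin in the 3′ untranslated region, the SECIS element, recruits SECIS-binding protein 2 (Secisbp2) and the elongation factor Eefsec, which deliver the selenocysteine tRNA. When selenium is scarce the codon can be read as a stop, and mRNAs such as Gpx1, Selenow and Selenoh are known to fall, while those of Txnrd1 and Gpx4 are better kept. The poly(A) tail is bound by poly(A)-binding protein, and its shortening by deadenylases such as those of the Ccr4-Not complex is usually the first step of mRNA decay.

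What the 10 genes share by definition is the in-frame UGA codon. It is given here as the TGA of the cDNA in capitals with 12 bases before and 6 after it, 5′ to 3′ on the coding strand, from the longest principal GENCODE vM21 transcript with an annotated selenocysteine (GRCm38). In Txnrd1 and Selenos the last 3 letters are the true stop codon, which shows how close to the protein's end the codon lies.
Gpx1: gtcgcgtctctcTGAggcacc
Gpx4: gtggcctcgcaaTGAggcaaa
Txnrd1: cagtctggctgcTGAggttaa
Selenow: tattgtggagctTGAggctat
Selenoh: cattgtacgagcTGAcgcgtg
Selenot: atttgtgtatccTGAgggtac
Selenok: atggctggtggaTGAggaagg
Selenos: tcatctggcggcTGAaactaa
Selenof: gaagtctgcggaTGAaaattg
Sephs2: ggcatgaagggcTGAggctgc

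The position of this codon separates the genes into kinds. It lay 105 nt upstream of the last exon junction in Gpx1, 342 nt in Gpx4, 243 nt in Selenow, 136 nt in Selenoh, 470 nt in Selenot and 78 nt in Selenof, and 5 nt upstream in Selenok. In Txnrd1 it began 60 nt downstream of the last junction and in Selenos 77 nt downstream, and Sephs2 has 1 exon. A stop codon well upstream of the last junction is the usual signal for nonsense-mediated decay. Of the gene tails given next, those with the codon at least 78 nt upstream ran from 79.0 nt in Selenof to 128.0 nt in Selenow. Selenok had 106.2 nt and Sephs2 81.5 nt. Txnrd1 and Selenos, with the codon downstream of the last junction, had 87.0 nt and 67.8 nt. Whether the position of the codon bears on tail length was not tested.

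Tails of selenoprotein transcripts were long compared with those of all nuclear transcripts in the same libraries. Their median was 104 nt and 106.5 nt in replicates 1 and 2, against 91 nt for all nuclear transcripts in each replicate. The difference in medians was 14.2 nt ± 1.77 (SD, n = 2). Tails over 90 nt were 61.4% (95% Wilson interval 57.3% to 65.4%) and 60.2% (57.1% to 63.2%) of the selenoprotein transcripts in replicates 1 and 2, while all nuclear transcripts had 50.6% in both. This difference of 10.2 percentage points ± 0.865 (SD, n = 2) was larger than the spread between replicates. The reads carry no molecular identifiers, so all intervals cover counting error only. At the other end, tails of up to 30 nt were less frequent among them, with 7.13% in replicate 1 and 5.77% in replicate 2, against 10.1% and 10.8% of all nuclear transcripts.

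**Figure D1:**
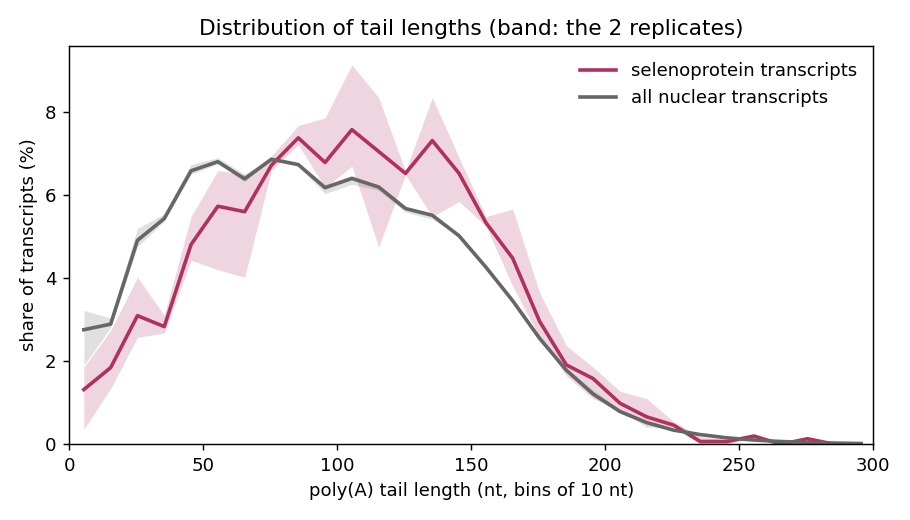
Share of transcripts (%) by poly(A) tail length in bins of 10 nt, for 1517 selenoprotein transcripts and 701976 nuclear transcripts of all genes; lines are both replicates together and bands span the 2 replicates. The selenoprotein line lies under the line of all transcripts up to 80 nt and above it from 81 nt to 230 nt, with wide bands because of the small number of transcripts.

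At the gene level the tail length is the geometric mean over the transcripts of a gene. The median gene tail of the 9 genes was 87.5 nt, against 76.4 nt for 7146 nuclear genes with at least 10 transcripts. In replicate 1 it was 91.5 nt against 78.0 nt, and in replicate 2 it was 87.9 nt against 76.8 nt. Above 75 nt, the boundary the study set between short and long gene tails, lay 8 of 9 genes, where the share over all tested genes was 52.6%. Above it in both replicates lay 7 of 9 genes, against 41.2% of the 4286 genes that reached 10 transcripts in both. Selenof and Selenos were the exceptions, and both were below 75 nt in replicate 2 only. These counts describe the 9 genes and were not tested.

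Selenow had the longest gene tail, Selenoh, Selenok and Gpx1 followed, then Selenot and Txnrd1, Sephs2, Selenof, and Selenos with the shortest. The values of neighbours in this order did not overlap between replicates for Selenow and Selenoh, for Gpx1 and Selenot, and for Txnrd1 and Sephs2. They overlapped for Selenoh and Selenok, Selenok and Gpx1, Selenot and Txnrd1, Sephs2 and Selenof, and Selenof and Selenos, so these pairs were not distinguishable by this measure.

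**Figure D2:**
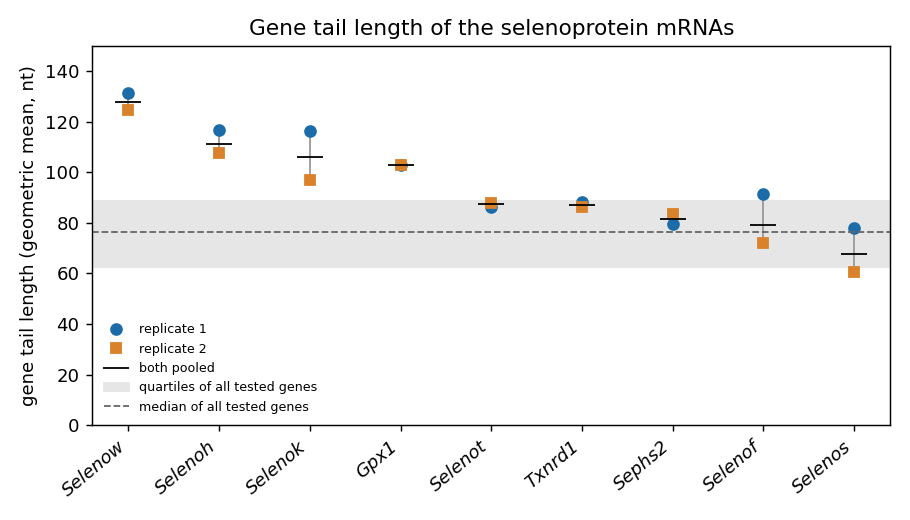
Gene tail length (geometric mean, nt) of 9 selenoprotein genes in replicate 1 (circles), replicate 2 (squares) and both pooled (bars), with the median (dashed line, 76.4 nt) and quartiles (grey band, 62.4 nt to 88.6 nt) of all 7146 tested genes. Selenow, Selenoh, Selenok and Gpx1 sit above the band in both replicates, and the other 5 genes have pooled values inside it.

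Glutathione peroxidases reduce peroxides with glutathione. Gpx1 (ENSMUSG00000063856, GRCm38 chromosome 9, 108338903 to 108340343) encodes the cytosolic enzyme, and its selenocysteine codon is at chr9:108339451-108339453, in a coding exon. Its gene tail was 102.8 nt and 103.0 nt in replicates 1 and 2 (64 and 133 transcripts), the closest agreement of all 9 genes, and lay at percentile 91.9 of all tested genes. Few Gpx1 tails were short. The shortest had 22 nt, 2.03% had up to 30 nt (0.792% to 5.10%), and the quartiles were 81 nt and 144 nt.

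Gpx4 (ENSMUSG00000075706, chromosome 10, 80047166 to 80056439) encodes the enzyme that reduces lipid hydroperoxides in membranes and thereby holds back ferroptosis. Only 3 transcripts were assigned to it in each replicate. Tails of 20, 87 and 88 nt were read in replicate 1, and of 82, 91 and 100 nt in replicate 2. By contrast, the annotated pseudogene Gpx4-ps2 (ENSMUSG00000110841, chromosome 10, 45875291 to 45876086) had 46 and 92 transcripts. Its longest aligned transcript was 99.7% identical to Gpx4 mRNA over 762 nt, with 2 mismatches and no gap, so reads of one can be placed on the other, and the values of both are uncertain. The gene tail of Gpx4-ps2 was 99.1 nt and 95.1 nt in replicates 1 and 2, or 96.4 nt pooled. With the reads of both counted as Gpx4, 144 transcripts had a gene tail of 95.1 nt, which would place it between Gpx1 and Selenot. Whether these reads came from Gpx4 was not tested.

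Txnrd1 (ENSMUSG00000020250, chromosome 10, 82833951 to 82897712) encodes cytosolic thioredoxin reductase, whose selenocysteine is the second residue from the end (codon 498 of 499, chr10:82896037-82896039). It gave the most transcripts, 202 and 342, or 35.9% of those of the 10 genes. Its gene tail was 88.2 nt and 86.3 nt in replicates 1 and 2, a difference smaller than the median of 3.96 nt between the replicates of 211 genes of like depth. The median of its transcripts was higher, 101 nt and 109 nt, and the geometric mean weighs very short tails strongly. Of 544 tails, 9 had 1 to 5 nt, none had 6 to 15 nt and 39 had 16 to 30 nt. Without the tails under 6 nt its gene tail was 93.4 nt.

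Selenow, Selenoh and Selenot belong to the Rdx family, small proteins with a thioredoxin-like fold and a Cys-x-x-Sec motif. Selenow (ENSMUSG00000041571, chromosome 7, 15917208 to 15922402) encodes a cytosolic protein abundant in muscle and brain. Its gene tail was 131.5 nt and 124.8 nt in replicates 1 and 2 (14 and 15 transcripts), at percentile 99.4 of all tested genes. All 29 tails were of at least 81 nt, and 89.7% were over 90 nt (73.6% to 96.4%). The spread of single tails was also the narrowest, with an SD of 0.37 on the log2 scale. The next was Selenok with 0.59, and the widest was Txnrd1 with 1.14.

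Selenoh (ENSMUSG00000076437, chromosome 2, 84669215 to 84670770) encodes a nucleolar DNA-binding protein of the same family. Its gene tail was 116.8 nt from 46 transcripts and 107.6 nt from 65, at percentile 96.3. Of its tails in both replicates pooled, 80.2% were over 90 nt (71.8% to 86.5%). This interval lay above those of Txnrd1 (56.7% to 64.9%), Sephs2 (37.4% to 53.6%), Selenot, Selenof and Selenos. It overlapped those of Gpx1 (60.2% to 73.2%), Selenok (46.3% to 73.0%) and Selenow. The intervals cover counting error only.

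Selenot (ENSMUSG00000075700, chromosome 3, 58576636 to 58593133) encodes the family member of the endoplasmic reticulum (ER) membrane. Its gene tail was 86.3 nt from 75 transcripts and 87.9 nt from 241. As in Txnrd1, the median was higher, with 93 nt and 110 nt, and 5 of 316 tails had 1 to 5 nt. The proteins of Selenow and Selenot share a fold, but the gene tail of Selenow was the longer in both replicates, with 131.5 nt and 124.8 nt against 86.3 nt and 87.9 nt.

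The remaining ER proteins had the least certain values. Selenok (ENSMUSG00000042682, chromosome 14, 29968308 to 29975662), an ER membrane protein needed for protein palmitoylation and calcium flux in immune cells, had a gene tail of 116.3 nt and 97.0 nt in replicates 1 and 2 (24 and 24 transcripts). The median was 110.5 nt in both, while the quartiles were 85 nt and 159 nt in replicate 1 and lower, 73.2 nt and 132 nt, in replicate 2. Selenof (ENSMUSG00000037072, chromosome 3, 144570304 to 144597680), a partner of the glycoprotein folding sensor UGGT, had 91.5 nt from 32 transcripts and 72.1 nt from 51. Selenos (ENSMUSG00000075701, chromosome 7, 66079649 to 66089405), which links the p97 ATPase to the removal of misfolded ER proteins, had 77.9 nt from 19 transcripts and 60.4 nt from 23. In these 3 genes replicate 1 was higher, by 19.3, 19.4 and 17.5 nt, against a median difference of 10.7 to 13.9 nt for genes of like depth. Selenos was the only gene under the median of all tested genes in the pooled data, at percentile 34.0, and 42.1% and 34.8% of its tails were over 90 nt in replicates 1 and 2.

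Sephs2 (ENSMUSG00000049091, chromosome 7, 127271879 to 127274055) encodes selenophosphate synthetase, which makes the selenium donor for all selenoproteins and is itself one. Its gene tail was 79.6 nt from 68 transcripts and 83.4 nt from 73, at percentile 61.4. Over 90 nt lay 45.4% of its tails (37.4% to 53.6%). The single exon overlaps an antisense gene model, Gm44729, by 792 exonic bases, and no read was assigned to that model.

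**Figure D3:**
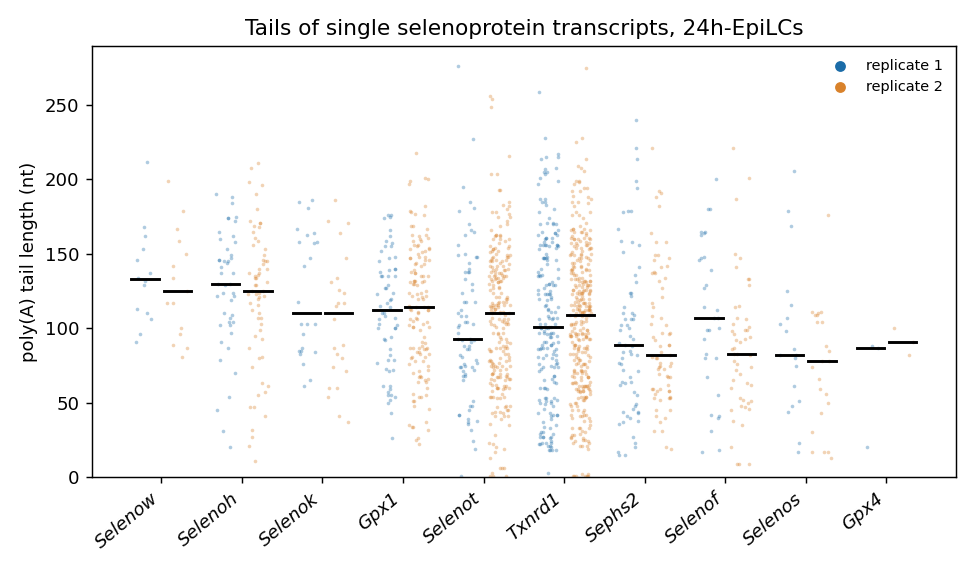
Poly(A) tail length (nt) of every selenoprotein transcript with at least 7 passes, 1 point per transcript, replicate 1 left and replicate 2 right for each gene, ordered by gene tail length with Gpx4 last; black bars are medians. Selenow has no tail under 81 nt, while tails close to 0 nt occur in Selenot and Txnrd1, and Gpx4 rests on 3 transcripts per replicate.

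The mRNAs known to fall when selenium is scarce (Gpx1, Selenow and Selenoh) were set beside the other 7. This grouping was made with earlier results of these data known, so the contrast is a description and was not tested. Their 337 transcripts had a median tail of 123.5 nt in replicate 1 and 122 nt in replicate 2. For the 1180 transcripts of the other genes, 860 of them from Txnrd1 and Selenot, it was 99 nt and 102 nt. The gene tails of the 3 lay between 102.9 nt and 128 nt, and those of the other 6 genes with a value between 67.8 nt and 106.2 nt. Selenok, with 106.2 nt, lay above Gpx1, so the groups overlapped, and Selenok lay above Gpx1 in replicate 1 but not in replicate 2. The 3 mRNAs are also among the shortest of the 10, and transcript length cannot be told apart from selenium sensitivity with so few genes.

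Annotated transcripts of Selenow had 736 nt, of Selenoh 783 nt and of Gpx1 1072 nt, while Selenot had 3157 nt and Txnrd1 3531 nt. Across the 9 genes, Spearman's correlation of gene tail length with transcript length was -0.48 for pooled values and -0.62 and -0.53 for replicates 1 and 2. Across 6754 tested coding genes it was -0.36. Coding genes with transcripts of up to 1000 nt had a median gene tail of 93.5 nt (381 genes), and those with at least 3000 nt had 69.2 nt (3337 genes). Selenow and Selenoh lay above the former value and Selenot and Txnrd1 above the latter, in both replicates. Selenos departed from the trend, with 1191 nt and the shortest gene tail. The genes share 2 libraries, and these correlations are descriptions across genes, not replicates.

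**Figure D4:**
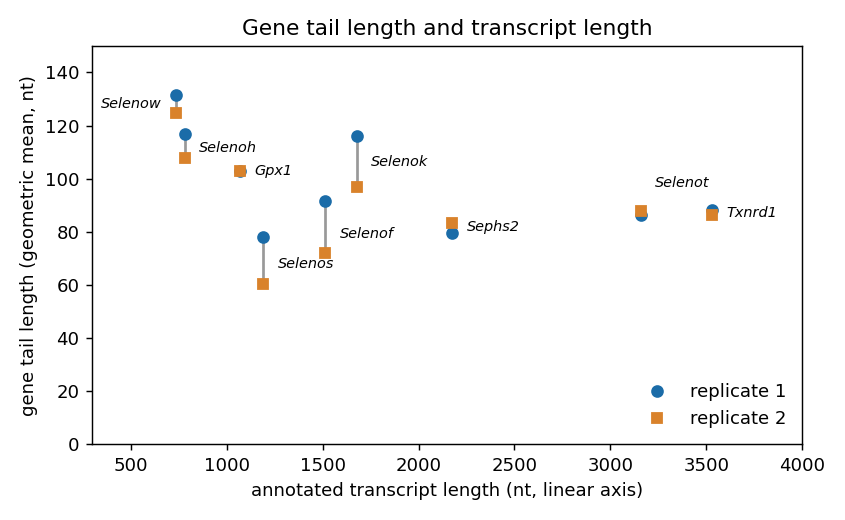
Gene tail length (geometric mean, nt) against annotated transcript length (nt) for 9 selenoprotein genes, replicate 1 as circles and replicate 2 as squares joined by a line. The shortest transcripts, Selenow and Selenoh, have the longest gene tails, and Selenos and Selenof lie under genes of 3157 nt and 3531 nt in at least 1 replicate.

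Very short tails were rare and confined, among these 10 genes, to 2 of them. Tails of 1 to 5 nt were 0.366% (0.100% to 1.32%) and 1.24% (0.709% to 2.15%) of selenoprotein transcripts in replicates 1 and 2, against 1.52% and 2.75% of all nuclear transcripts. All 14 came from Txnrd1 (9) and Selenot (5), the genes with the most transcripts and the longest mRNAs, which together gave 56.7% of the reads. The shortest had 1 nt in both genes, and 1 such tail of Selenot was a lone T. A tail of 1 nt cannot hold the 4 A in the first 8 bases that the paper's filter asked for. Whether these reads came from nearly deadenylated mRNAs was not tested. The other 8 genes had 0 of 657, with a Wilson interval up to 0.581%. For Txnrd1 the share was 0.495% in replicate 1 (0.0874% to 2.75%) and 2.34% in replicate 2 (1.19% to 4.55%), and for Selenot it was 1.33% and 1.66%.

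**Figure D5:**
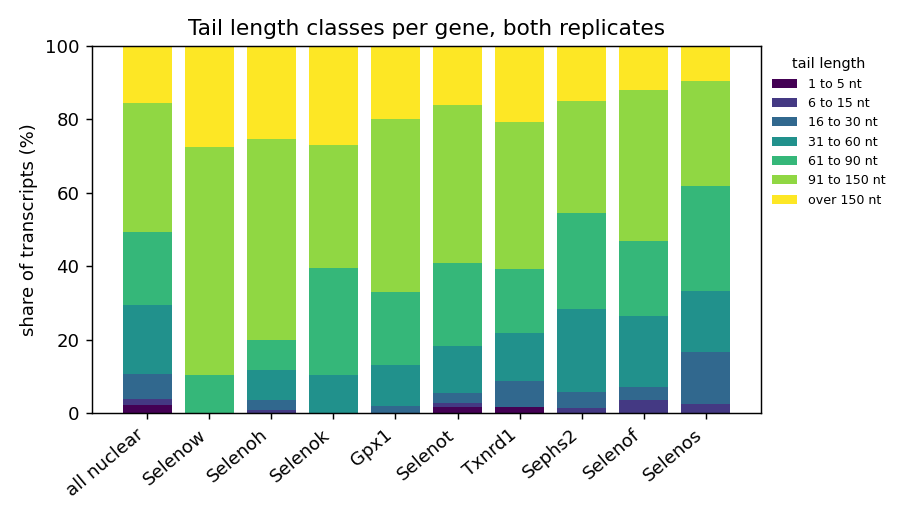
Share of transcripts (%) in 7 classes of tail length for all nuclear transcripts and for each of 9 selenoprotein genes, both replicates pooled, ordered by gene tail length. Tails of up to 30 nt shrink to 0 in Selenow and Selenok and reach 16.7% in Selenos, against 10.6% of all nuclear transcripts.

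Bases other than A were about as frequent in these tails as in all tails. They occurred in 12.1% of selenoprotein tails in replicate 1 (9.60% to 15.1%) and in 8.45% in replicate 2 (6.86% to 10.4%), beside 12.2% and 9.55% of all nuclear tails. Of 1517 tails, 78 held a T, 45 a C and 38 a G. T at the 3′ end was found in 5.48% of selenoprotein tails in replicate 1 (3.87% to 7.72%) and in 1.86% in replicate 2 (1.18% to 2.91%). All nuclear tails had 3.93% and 2.58%, so the sign of the difference changed between replicates. Terminal uridylyl transferases can leave such a T on deadenylated mRNAs. Of the 48 selenoprotein tails ending in T, 11 had 61 to 90 nt and 16 had 91 to 150 nt. These were 3.68% and 2.52% of the selenoprotein tails of those lengths, beside 2.02% and 1.72% of all nuclear tails. The origin of the terminal T was not tested.

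Terminal T was most frequent in tails of 16 to 30 nt, with 9 of 70. All 9 were in replicate 1, where 35 tails had this length, and none of the 35 such tails in replicate 2 ended in T. The corresponding shares of all nuclear tails were 15.6% and 11.8%. Txnrd1 gave 6 of the 9. Its share of tails ending in T was 6.93% in replicate 1 (4.17% to 11.3%) and 1.17% in replicate 2 (0.456% to 2.97%), and these intervals did not overlap. Selenot, in contrast, had 5.33% and 4.15%. Of its tails of 31 to 60 nt, 8 of 41 ended in T, against 3.03% of all nuclear tails of that length. It is 1 of 7 length classes in 1 of the 10 genes, and the count was not tested. The 9 tails of 16 to 30 nt follow with bases other than A in capitals, to show that each is a pure A run closed by 1 or 2 T.
Txnrd1, 18 nt: aaaaaaaaaaaaaaaaaT
Txnrd1, 18 nt: aaaaaaaaaaaaaaaaTT
Txnrd1, 21 nt: aaaaaaaaaaaaaaaaaaaTT
Txnrd1, 22 nt: aaaaaaaaaaaaaaaaaaaaTT
Txnrd1, 24 nt: aaaaaaaaaaaaaaaaaaaaaaaT
Txnrd1, 27 nt: aaaaaaaaaaaaaaaaaaaaaaaaaaT
Selenot, 19 nt: aaaaaaaaaaaaaaaaaTT
Sephs2, 17 nt: aaaaaaaaaaaaaaaTT
Gpx4, 20 nt: aaaaaaaaaaaaaaaaaaaT

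A different kind of tail held several bases other than A inside a long A run. Only 4 of 1517 selenoprotein tails (0.264%) had 4 or more such bases, close to the 0.268% of all nuclear tails. In 3 of the 4 every such base was the same. They are shown because each of them repeats a single base, T in Selenot (64 passes) and Selenof (12 passes) and G in Sephs2 (13 passes).
Selenot, 148 nt: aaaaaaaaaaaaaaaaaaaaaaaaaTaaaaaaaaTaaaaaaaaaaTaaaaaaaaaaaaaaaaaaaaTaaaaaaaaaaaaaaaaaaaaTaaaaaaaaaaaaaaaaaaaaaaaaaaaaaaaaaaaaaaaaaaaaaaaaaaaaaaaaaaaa
Selenof, 221 nt: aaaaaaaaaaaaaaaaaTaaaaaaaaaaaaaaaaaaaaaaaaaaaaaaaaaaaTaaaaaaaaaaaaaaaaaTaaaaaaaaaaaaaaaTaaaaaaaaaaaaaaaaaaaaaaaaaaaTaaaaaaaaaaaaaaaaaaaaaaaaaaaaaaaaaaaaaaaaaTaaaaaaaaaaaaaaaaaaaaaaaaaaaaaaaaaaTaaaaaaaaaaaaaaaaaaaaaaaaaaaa
Sephs2, 194 nt: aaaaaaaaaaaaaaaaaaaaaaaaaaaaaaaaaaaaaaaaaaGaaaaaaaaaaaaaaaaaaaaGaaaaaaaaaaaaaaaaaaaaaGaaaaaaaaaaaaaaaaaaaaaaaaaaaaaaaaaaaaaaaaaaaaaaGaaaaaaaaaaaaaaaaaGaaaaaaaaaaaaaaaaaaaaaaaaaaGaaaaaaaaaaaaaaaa

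Of the other 14 mouse selenoprotein genes, 11 had a transcript and 4 reached 10. These were Gpx2, a glutathione peroxidase of epithelia, with a gene tail of 85.0 nt from 14 transcripts, Txnrd3, a thioredoxin-glutathione reductase, with 53.3 nt from 15, Msrb1, which repairs oxidised methionine, with 105.8 nt from 10, and Selenoi, an enzyme of phospholipid synthesis, with 89.0 nt from 12. The deiodinases Dio1 and Dio2 had no transcript. In Msrb1 the replicates had 79.8 nt and 161.5 nt, from 6 and 4 transcripts, so these genes could not be placed at this depth.

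A broad list of genes linked to selenium incorporation was measured in the same libraries. It held Secisbp2, Secisbp2l, Eefsec, Pstk, Sepsecs, Trnau1ap, Sars and Scly, and also Sephs1, Rpl30 and Ncl. A single gene gave 4771 of its 5298 transcripts. Of 11 genes, 10 had at least 10 transcripts, with a median gene tail of 89.8 nt, and 9 of the 10 lay above 75 nt, where the share over all tested genes was 52.6%. Among those with 10 transcripts in the replicate, the median was 77.6 nt in replicate 1 (6 genes), against 78.0 nt for all genes, and 87.0 nt in replicate 2 (7 genes), against 76.8 nt. Trnau1ap, a protein bound to the selenocysteine tRNA, had 108.1 nt from 27 transcripts and 87.0 nt from 40, and Sars, the seryl-tRNA synthetase that charges this tRNA first, had 77.1 nt from 91 and 85.1 nt from 112. Secisbp2 had 84.6 nt from 13 transcripts, and Eefsec 114.1 nt from 10. Sephs1, the relative of Sephs2 without selenocysteine, had 68.4 nt and 81.2 nt, against 79.6 nt and 83.4 nt for Sephs2. The gene of this list under 75 nt was Secisbp2l, a paralog of Secisbp2, with 20.4 nt and 114.4 nt in replicates 1 and 2 (11 and 10 transcripts).

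Antioxidant enzymes without selenocysteine were also set beside the 9 genes. Of 20, 18 had at least 10 transcripts, their median gene tail was 89.8 nt, and 16 of 18 (88.9%) lay above 75 nt, the same share as the 8 of 9 selenoprotein genes. In replicate 1 their median was 91.1 nt and in replicate 2 it was 90.2 nt, beside 91.5 nt and 87.9 nt for the selenoprotein genes. Gsr, glutathione reductase, a relative of Txnrd1 that uses cysteine only, had 96.8 nt and 92.8 nt, above the 88.2 nt and 86.3 nt of Txnrd1 in each replicate.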

How the data were processed

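Per the labels, 1 sample with 2 barcoded replicates was read. The authors made circular consensus reads, mapped them to mm10 with minimap2 (version 2.17), took the soft-clipped 3′ end as the tail, left out reads without one, and used featureCounts (version 2.0.1) to assign genes. The deposited table gives counts of A, T, C and G in each tail and counts of passes, without normalization. Depth was 354259 and 593361 reads with at least 7 passes. Tail length was the number of all bases. Genes were placed with GENCODE vM21, where 12955 of 12962 identifiers matched. Genes with at least 10 transcripts got a geometric mean. Intervals are 95% Wilson intervals. Copies were searched with blastn (version 2.17.0), aligned over at least 200 nt. The genes named are the 10 members and fixed lists. Members and lists were chosen with earlier results of these data known. No test was possible with 1 group. The scripts, written in Python 3.11.15, were tested on simulated data. The alternatives changed passes, length, shortest tail, summary per gene, minimum of transcripts, wells and replicates.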

Additional observations from a re-analysis of the deposited data

Results flagged for a closer look

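Reads outside the gene comparison were seen in 2 places. The pseudogene Gpx4-ps2 had 138 transcripts with at least 7 passes, against 6 of Gpx4 and above the 3 counts that a count of 0 allows. Reads of the 10 genes with fewer than 7 passes numbered 125, and had a median tail of 106 nt, the same as the reads that were used.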

How the results depend on the processing

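No paired analysis was possible because the sample analysed here forms 1 group. Shifts were judged by the SD between both replicates. The median gene tail of the members (87.5 nt) was 93.7 nt with tails of at least 6 nt, 96.9 nt with tails of at least 15 nt, 106 nt with the arithmetic mean or the median per gene, 91.3 nt with Gpx4-ps2 reads counted as Gpx4, 95.2 nt without Txnrd1 and 94.98 nt without Selenot; the last 3 were chosen after seeing the data. With 1 replicate left out it ranged from 87.9 nt to 91.5 nt. It exceeded the median of all tested genes by 10.3 nt to 17 nt in all alternatives computed for both. The cause of these shifts was not tested, except that leaving out the shortest tails raises a geometric mean. The number of members above 75 nt ranged from 7 to 9 in all alternatives, 7 without replicate 1 and 9 without replicate 2. The share of all tested genes above 75 nt rose from 52.6% to 65.6% without tails under 6 nt, 72.2% without those under 15 nt, 74.9% with the median per gene and 87.5% with the arithmetic mean, where 9 of 9 members lay above it. The median tail over their transcripts was 104 nt with at least 15 passes and 104 nt to 106.5 nt with 1 replicate left out. Tails over 90 nt made up 61.6% among tails of at least 15 nt and 60.2% to 61.4% with 1 replicate left out. Shares of 1 to 5 nt ranged from 0.366% to 1.24%, of tails with a non-A base from 8.45% to 12.1% and of tails ending in T from 1.86% to 5.48% when 1 replicate was left out. When end bases (the first and the last) were not counted, 6.53% of tails held a non-A base. Of 99 values of single genes under alternatives, 76 stayed within 1 SD and 23 moved further. They include values with 1 replicate left out, from which the SD itself is made. This SD ran from 0.095 nt for Gpx1 to 13.7 nt for Selenof. The tally therefore depends on how closely the replicates agreed and is not a measure of robustness. Depth limits Gpx4 most, with 6 transcripts and no gene value, and then Selenow, Selenos and Selenok, with 29, 42 and 48.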

Other observations

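Internal C bases were looked at by position, counted from 1 at the start of the tail, after they had been seen to recur at similar positions. In tails of at least 40 nt, 11 of 46 internal C bases of selenoprotein tails (23.9%, 13.9% to 37.9%) lay at positions 20 to 30, against 10.4% of 20283 in all nuclear tails. Gpx1 gave 4 of these and Selenoh 4. The window was chosen after the positions were seen, so the share is a description only. The same window held 6 of 34 internal T bases and 1 of 21 internal G bases of the selenoprotein tails.

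The polyadenylation signal AATAAA was searched on the sense strand in the last 40 bases of the annotated transcript. It was present in 8 of the 10 selenoprotein mRNAs and in 62.7% of 6754 tested coding genes. In Selenok and Selenos neither AATAAA nor ATTAAA was in this window, as in 23.1% of the coding genes.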
